A study of Mus musculus with 24 samples.

Results

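The genes described here are the mouse C2H2 zinc finger genes with a Zfp symbol that were expressed in splenic CD4+ T cells. A gene was a member when it was protein coding, its symbol was Zfp followed by digits only, and its level averaged at least 5 CPM over all 24 libraries, where CPM is the gene's count per 1000000 counts of its library. Zfp36 was left out, since its product is an RNA-binding protein with fingers of another type. Of 364 such genes 220 were members and 144 lay below the threshold. The members were thus chosen by their mean CPM over all libraries, and their levels are given as a description. Just inside the threshold lay Zfp704 at 5.14, Zfp516 at 5.35, Zfp619 at 5.37, Zfp784 at 5.41 and Zfp873 at 5.51 CPM. Just outside lay Zfp438 at 4.998, Zfp85 at 4.88, Zfp772 at 4.86, Zfp760 at 4.71 and Zfp40 at 4.64 CPM. All 220 members passed the filter on low counts. The mean of every group reached 5 CPM in 190 of them, and 30 fell short of it in at least 1 group.

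The study stimulated CD4+ T cells of C57BL6 mice with antibodies to CD3 and CD28, and its subject is the DNA sensor AIM2. Cells of 6 mice were sequenced, 3 labelled WT with the numbers 1, 3 and 4 and 3 labelled Aim2-/- with the numbers 1, 2 and 4. Libraries with the same genotype and number in their labels were taken to come from 1 mouse. Each mouse thus gave an unstimulated library (0 h) and libraries after 3, 6 and 24 h of stimulation, which makes 8 groups of 3. The Aim2-/- mice stem from a commercial stock on the same background per the methods of the study, and no further allele, no restriction of the deletion to a cell type and no age is named for these mice. For stimulation, the methods of the study enrich CD4+ T cells by magnetic removal of other cell types. They do not describe the sequencing of this time course and were taken to apply to it. All groups would then hold mixed CD4+ T cells.

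C2H2 zinc fingers are small folds in which a pair of cysteines and a pair of histidines hold a zinc ion. Arrays of them read DNA sequence, and some bind RNA or protein instead. Many members of the family also carry a KRAB domain, which recruits the co-repressor TRIM28 and through it the histone methyltransferase SETDB1 and HP1 proteins. KRAB zinc finger proteins are known for silencing transposable elements and for protecting the methylation of imprinted genes. In the reference proteins, 110 members held a KRAB A box motif and 110 did not. The motif was strict, so genes with a diverged KRAB domain can stand among the latter. Members with the motif held 12 finger motifs at the median and the others 7, and 7 members held none of the spacing searched for.

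Upstream sequences of 5 members are shown, picked by hand among genes with large changes or with opposite changes near each other. They are the 250 bases before the RefSeq start on GRCm38.p6, written in the direction of transcription, with matches to the searched motifs in capitals. Zfp296 (chr7:19577037-19577286, plus strand) had the largest rise. Zfp948 (chr17:21566728-21566977, plus strand) rose while its near neighbour Zfp53 (chr17:21488738-21488987, plus strand) fell. Zfp945 (chr17:22867135-22867384, minus strand) and Zfp871 (chr17:32788288-32788537, minus strand) were among the deepest falls. At 24 h in WT Zfp516 and Zfp949, which are not shown, fell further.
Zfp296: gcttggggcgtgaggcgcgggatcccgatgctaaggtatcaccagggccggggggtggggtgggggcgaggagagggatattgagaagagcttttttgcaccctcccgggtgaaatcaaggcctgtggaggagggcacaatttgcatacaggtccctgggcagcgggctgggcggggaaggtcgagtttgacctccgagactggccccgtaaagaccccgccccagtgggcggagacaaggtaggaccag
Zfp948: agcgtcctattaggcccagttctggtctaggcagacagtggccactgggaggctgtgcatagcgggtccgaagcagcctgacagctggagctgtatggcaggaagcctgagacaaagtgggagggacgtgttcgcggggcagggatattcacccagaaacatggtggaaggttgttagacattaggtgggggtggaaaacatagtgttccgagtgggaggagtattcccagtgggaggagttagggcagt
Zfp53: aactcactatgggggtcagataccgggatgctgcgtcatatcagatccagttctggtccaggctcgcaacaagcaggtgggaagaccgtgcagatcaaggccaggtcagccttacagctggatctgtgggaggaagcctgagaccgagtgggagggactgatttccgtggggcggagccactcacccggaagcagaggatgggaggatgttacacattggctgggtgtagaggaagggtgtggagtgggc
Zfp945: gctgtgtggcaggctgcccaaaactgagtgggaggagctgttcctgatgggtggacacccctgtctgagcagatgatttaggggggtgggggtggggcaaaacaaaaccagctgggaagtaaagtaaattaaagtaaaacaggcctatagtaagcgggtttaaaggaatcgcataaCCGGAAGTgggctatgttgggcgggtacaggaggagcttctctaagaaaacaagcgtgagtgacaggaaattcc
Zfp871: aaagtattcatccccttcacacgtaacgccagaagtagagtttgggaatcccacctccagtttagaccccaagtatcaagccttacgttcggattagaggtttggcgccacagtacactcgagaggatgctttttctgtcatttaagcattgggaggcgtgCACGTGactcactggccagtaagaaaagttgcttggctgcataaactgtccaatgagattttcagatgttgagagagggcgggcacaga

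In a global alignment the upstream sequences of Zfp53 and Zfp948 were identical in 56.4% of columns, where Zfp53 and Zfp296 reached 46.6% and Zfp53 and Zfp871 reached 48.3%. RefSeq windows of 300 bases around the start were found for 184 of the 220 members, in 227 windows. The motif CCGGAAGT, searched on both strands like the others, lay in 10.1% of the members' windows and in 3.89% of all 32851 windows. It lay in 9.76% of windows of members that rose at 24 h in WT cells and in 11.5% of those that fell. GCGCATGC lay in 5.73% of the members' windows and 2.71% of all, ACTACAA in 5.29% and 3.24%, TGACGTCA in 3.52% and 1.79%, and CACGTG in 6.61% and 7.15%. None of these strings contains another. The 32851 windows were not limited to genes expressed in these cells, as the members were. The shares therefore do not set the members apart from other expressed genes. Of the sequences printed, that of Zfp945 holds CCGGAAGT and that of Zfp871 holds CACGTG.

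Members lay in clusters along the genome. Chromosome 7 held 58, chromosome 17 held 27, chromosome 8 held 18, and chromosomes 9 and 13 held 14 each. A distance of at most 200 kb separated 116 members from another member, and 80 of these carried the KRAB motif. Reads from near-identical copies cannot be assigned to 1 gene, so stretches of 50 bases shared with transcripts of other genes were counted. They made up 0.296% of a member's transcript sequence at the median and over 20% in 10 members, among them Zfp984 with 54.5%, Zfp59 with 52.4% and Zfp932 with 37%, whose values are uncertain. Exons of 76 members share bases with another annotated gene, 13 of them over more than 20% of their length, and whether counting used the strand is not given in the sources used here.

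Libraries were checked before any comparison. Totals lay between 19715161 and 21627018 counts, and CPM values below use TMM-scaled totals. The T cell markers Cd3e, Cd3g, Cd4, Cd5 and Lck summed to 2370 to 3500 CPM. Aim2 ranged from 5.28 to 20.1 CPM over the 12 Aim2-/- libraries and from 32.5 to 75 CPM in mice WT 3 and WT 4. In the mouse labelled WT 1 it ranged from 5.57 to 21.5 CPM, so this mouse goes against its label. Counts at 3 and 24 h are therefore given without this mouse as well. So are the named differences between genotypes at single times and the named WT calls that this mouse decides. Some markers of B cells and myeloid cells differed with genotype at 0 h, and no marker gene was at 0 throughout a group. B cell markers summed to 3.19 to 4.6 CPM in WT and 10.1 to 34.2 CPM in Aim2-/- libraries, with 2 of 5 genes called. Myeloid markers summed to 25.9 to 50.2 and 94.8 to 343 CPM, with 2 of 6 called. Erythroid markers summed to 6.14 to 53.6 and 15.9 to 255 CPM, with 0 of 4 called. Sums of CD8 T cell markers (9.77 to 11.4 and 8.12 to 10.9 CPM) overlapped, with no gene called. So did those of NK cell markers (10.3 to 16.3 and 12.4 to 23.5 CPM). In bulk samples, fewer cells of a type and less RNA per cell cannot be told apart.

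Levels per length of exon, the scale on which genes can be compared, spanned 0.333 to 42.1 CPM per kb around a median of 4.76. Zfp740 was highest with 42.1 CPM per kb, followed by Zfp598, a ubiquitin ligase that senses collided ribosomes, with 41.6. Zfp281, a transcriptional regulator known from stem cells, had 39.3 CPM per kb and Zfp207, which brings the checkpoint protein BUB3 to kinetochores, 34.3. Among the 10 highest, Zfp869 with 31.7 and Zfp445, which maintains imprints, with 27.6 CPM per kb carried the KRAB motif. Members with the motif stood at 3.21 CPM per kb at the median and those without it at 6.73.

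After 24 h of stimulation most Zfp genes with a KRAB motif had fallen in both genotypes. In WT cells 75 of these 110 genes fell and 13 rose, with a median log2 fold change of -0.76. Of the 110 members without the motif 53 fell and 31 rose, with a median of -0.26. Over all 220 members 128 fell and 44 rose in WT cells, against 34.8% of all 15325 genes tested that fell and 36.6% that rose, with a median of -0.01 over all genes. In Aim2-/- cells 120 members fell and 49 rose, against 33.5% and 36.8% of all genes. There 69 KRAB genes fell and 19 rose (median -0.53), and of the others 51 fell and 30 rose (median -0.18), where the median over all genes was 0.03. A gene counts as fallen or risen when edgeR's quasi-likelihood test gave it an adjusted p under 0.05. Levels are relative to the other RNA of a library, so a fall need not mean fewer transcripts per cell. More members fell than rose under RLE size factors too, with 134 and 41 in WT, and under library totals, with 129 and 44. Of the 81 Zfp genes below the threshold that could be tested 24 fell and 22 rose in WT, with a median of -0.09. Without the mouse labelled WT 1, 68 KRAB genes fell and 13 rose (median -0.76).

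**Figure D1:**
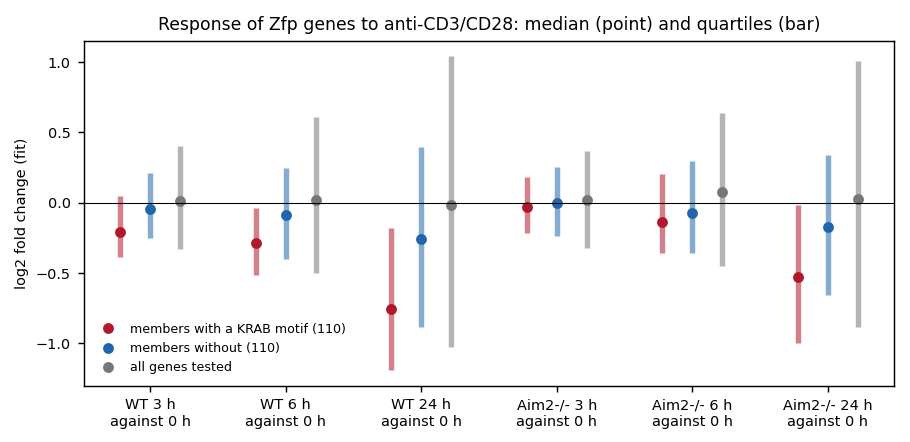
Log2 fold changes (y axis) at 3, 6 and 24 h against 0 h in WT and Aim2-/- cells, for the 110 members with a KRAB motif, the 110 without it and all 15325 genes tested. Points are medians and bars run between the quartiles over genes. At 24 h the KRAB medians are -0.76 and -0.53, those of the other members -0.26 and -0.18, and those of all genes -0.01 and 0.03.

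The number of fingers and the KRAB motif go together, so the members were also split by both. Among KRAB genes, 55 of 81 with 10 or more finger motifs fell in WT at 24 h (median -0.66) and 19 of 28 with 4 to 9 (median -0.89). Without the KRAB motif, 17 of 33 with 10 or more fell (median -0.31) and 21 of 41 with 4 to 9 (median -0.29). In Aim2-/- cells the medians were -0.51 and -0.64 with the motif and -0.32 and -0.11 without it. By chromosome, 11 of the 14 members on chromosome 13 and 19 of the 27 on chromosome 17 fell in WT at 24 h. The counts were 32 of the 58 on chromosome 7 and 6 of the 14 on chromosome 9. Those of chromosome 8 and of chromosomes with fewer members are not given here. Over all genes 34.8% fell in WT at 24 h.

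Summed over the 110 KRAB genes, the level in WT libraries 1, 3 and 4 was 3324, 3143 and 3087 CPM at 0 h, 2588, 2815 and 2936 at 3 h, 2625, 2566 and 2651 at 6 h and 1945, 1945 and 1999 CPM at 24 h. In Aim2-/- libraries 1, 2 and 4 it was 2489, 2807 and 2657 CPM at 0 h, 2548, 2719 and 2491 at 3 h, 2322, 2432 and 2344 at 6 h and 1908, 1845 and 1772 CPM at 24 h. The 24 h libraries lay below all others of their genotype. The sum of the members without the motif went from 6696, 6660 and 6786 to 5421, 5534 and 5566 CPM between 0 and 24 h in WT libraries, and Aim2-/- libraries went from 5803, 6364 and 5964 to 4984, 5447 and 4963 CPM.

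**Figure D2:**
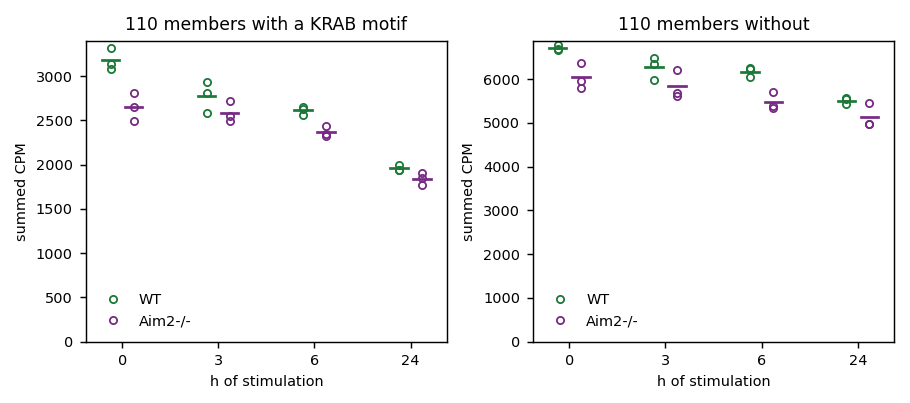
Summed CPM (y axis) of members with and without a KRAB motif by time of stimulation (x axis), with 1 circle per library and a line at the mean of 3. The KRAB mean goes from 3185 CPM at 0 h to 1963 CPM at 24 h in WT, and the Aim2-/- mean goes from 2651 to 1841 CPM.

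At 3 h 60 members had fallen and 24 had risen in WT cells, against 16.4% and 16.2% of all genes, and 36 had fallen and 39 had risen in Aim2-/- cells, against 14.6% and 16.1%. At 6 h 77 had fallen and 37 had risen in WT, against 24.8% and 26.4%, and 71 and 44 in Aim2-/- cells, against 22.7% and 28.5%. Scaling by library totals changed these splits and turned that of 3 h in WT and of 6 h in Aim2-/- cells. With it 35 fell and 44 rose at 3 h in WT, 16 and 51 at 3 h in Aim2-/-, 64 and 43 at 6 h in WT, and 42 and 58 at 6 h in Aim2-/- cells. RLE size factors gave 38 falls and 34 rises at 3 h in Aim2-/- cells. In log2 units, scaling by library totals moved the median of all genes by 0.11 at 3 h for WT, 0.12 at 3 h for Aim2-/- and 0.12 at 6 h for Aim2-/- cells. Relative to the median of all genes, the members' median stood at -0.16 at 3 h and -0.19 at 6 h in WT, and at -0.04 and -0.19 in Aim2-/- cells. Single mice moved the 3 h counts. In WT 84 members were called with all mice, 47 without the mouse labelled WT 1 (22 higher, 25 lower) and 42 without mouse WT 3, and in Aim2-/- cells 75 with all mice and 34 without mouse Aim2-/- 4.

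Between 6 and 24 h 110 members fell and 33 rose in WT cells, against 28.0% and 29.6% of all genes. In Aim2-/- cells 106 fell and 30 rose, against 27.0% and 27.4%. KRAB genes gave 69 falls and 12 rises in WT and 66 and 11 in Aim2-/- cells over this interval.

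Calls common to the genotypes were about as frequent among members as among all genes at 6 and 24 h. At 24 h 153 members were called in both, which is 89% of the WT and 90.5% of the Aim2-/- calls, with 38 higher and 115 lower in both and 0 in opposite directions, where the shares over all genes were 88.2% and 89.6%. At 6 h 89 were common (78.1% and 77.4%, over all genes 79.6% and 79.6%) and at 3 h 51 (60.7% and 68%, over all genes 73.6% and 78.2%), with 0 opposed at either time. The genotypes share no library.

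**Figure D3:**
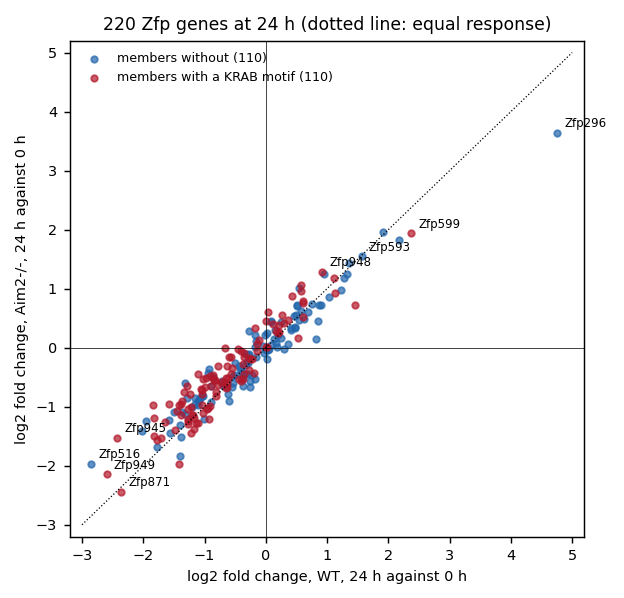
Log2 fold changes at 24 h against 0 h in WT (x axis) and Aim2-/- cells (y axis) for the 220 members, with KRAB genes and others in different colours. Points lie along the line of equal response, from Zfp296 at 4.76 and 3.64 to Zfp949 at -2.60 and -2.14 and Zfp516 at -2.85 and -1.97.

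The largest rise was that of Zfp296 (ENSMUSG00000011267, chr7:19577287-19580656), known from pluripotent stem cells. In WT libraries 1, 3 and 4 it was 0.5001, 0.6203 and 0.355 CPM at 0 h, 4.03, 3.495 and 1.68 at 3 h, 7.41, 8.42 and 6.38 at 6 h and 12.2, 12.9 and 15.4 CPM at 24 h. Each later group lay above the one before it without overlap. With so low a level at 0 h it reached the membership threshold through its stimulated libraries, so its rise is given as a description. The log2 fold change at 24 h was 4.76 (SE 0.35) in WT and 3.64 (SE 0.33) in Aim2-/- cells, whose libraries went from 0.872, 0.886 and 1.18 to 9.15, 12.95 and 14.8 CPM. At 0 h it had only 7 to 12 counts per WT library, and 12.9% of its exon bases are shared with Gemin7 on the opposite strand, so the size of this fold is uncertain.

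Zfp948 (ENSMUSG00000067931, chr17:21567008-21588699), a KRAB gene, rose early and was partly back by 24 h. Its WT libraries held 10.8, 11.01 and 7.302 CPM at 0 h, 56.3, 68.6 and 35.6 at 3 h, 54.98, 65.7 and 57.8 at 6 h and 21.6, 15.1 and 18.3 CPM at 24 h. The 3 h and 6 h libraries lay above those of 24 h, which lay above those of 0 h. It rose by 2.46, 2.62 and 0.92 in WT (log2, SE 0.26 at 3 h). The Aim2-/- changes were 2.41, 2.29 and 1.29 (SE 0.26 at 3 h), all called. Zfp202 also peaked at 6 h, with 4.02 ± 0.549 CPM at 0 h, 10.02 ± 3.01 at 3 h, 19.2 ± 3.34 at 6 h and 9.79 ± 0.925 CPM at 24 h in WT (SD, n = 3). At 0 h in WT Zfp202 lay below the 5 CPM threshold, so its rise is given as a description. Zfp94 rose by 0.82 and 0.94 at 3 and 6 h in WT and stood at 0.27 at 24 h without a call.

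Other rises built up to 24 h. Zfp599, a KRAB gene, went from 2.17 ± 0.08699 to 11.3 ± 1.51 CPM in WT (SD, n = 3), and rose by 2.37 and 1.94 in WT and Aim2-/- cells on the log2 scale. Zfp771 went from 3.96 ± 1.02 to 14.96 ± 1.62 CPM (SD, n = 3) and rose by 1.92 and 1.95. Zfp599 and Zfp771 lay below the 5 CPM threshold at 0 h in WT and above it at 24 h. Their rises are thus given as a description. Zfp446 rose by 1.36 and 1.44 in the 2 genotypes. Zfp870, a KRAB gene, rose by 1.45 in WT at 24 h and stood at 0.72 in Aim2-/- cells without a call. With 2843 counts over all libraries Zfp870 lay near the membership threshold, so its rise is given as a description too.

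Zfp367 (ENSMUSG00000044934, chr13:64133018-64153202) turned from a fall to a rise. In WT it was 16.5, 9.36 and 11.8 CPM at 0 h, 9.35, 7.56 and 7.196 at 3 h, 9.84, 5.45 and 6.67 at 6 h and 55.3, 58.1 and 55.3 CPM at 24 h. It fell by 0.77 at 6 h (SE 0.24, adjusted p 0.00915) and rose by 2.17 at 24 h (SE 0.23, adjusted p 3.9e-08). In Aim2-/- cells it stood at -0.23 at 6 h without a call and rose by 1.83 at 24 h. The 24 h libraries of either genotype lay above all its earlier ones. Zfp101 fell by 1.27 at 6 h in WT and stood at -0.14 at 24 h without a call.

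Among the falls, Zfp949 (ENSMUSG00000032425, chr9:88548020-88571061), a KRAB gene, went down at every step. In WT it was 43.1, 38.1 and 40.9 CPM at 0 h, 22.3, 21.3 and 23.1 at 3 h, 17.4, 13.2 and 14.4 at 6 h and 7.904, 5.396 and 6.88 CPM at 24 h. No group overlapped the next. It fell by 2.60 at 24 h (SE 0.16, adjusted p 1e-11) in WT and fell by 2.14 (SE 0.16, adjusted p 1.9e-10) in Aim2-/- cells.

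Zfp871 (ENSMUSG00000024298, chr17:32765496-32788287), another KRAB gene, fell in both genotypes too. It went from 112, 88.03 and 104 CPM at 0 h to 22.7, 18.8 and 17.97 CPM at 24 h in WT. Aim2-/- libraries 1, 2 and 4 went from 62.3, 91.1 and 48.98 to 9.69, 19.7 and 7.901 CPM. The 0 h and 24 h libraries did not overlap in either genotype, and it fell by 2.36 and 2.44. Zfp945 stood at -0.01 and -0.36 at 3 and 6 h in WT without a call, and then fell by 2.42 at 24 h, from 25.6, 18.5 and 18.2 CPM at 0 h to 3.75, 2.83 and 5.03 CPM.

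Zfp53 (ENSMUSG00000057409, chr17:21488998-21510473) had the largest called fall without overlap at 3 h in WT. It stood at 151, 122 and 126 CPM at 0 h, 59.8, 64.2 and 67.2 at 3 h, 48.5, 45.9 and 46.9 at 6 h and 33.8, 43.5 and 43.99 CPM at 24 h. It fell by 1.06 at 3 h (SE 0.11, adjusted p 1.8e-07) and fell by 1.72 at 24 h. Of the other KRAB genes Zfp386 fell by 0.89, 1.42 and 1.64 at 3, 6 and 24 h in WT and Zfp382 fell by 0.66, 1.36 and 1.22. The 3 h value of Zfp382 was -0.57 (adjusted p 0.131) without the mouse labelled WT 1.

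Genes without the KRAB motif fell as well. Zfp516 went from 8.04 ± 1.34 to 1.11 ± 0.122 CPM in WT at 24 h (SD, n = 3). This was the largest fall of a member in that comparison (-2.85, SE 0.30). Its mean of 5.35 CPM lay just above the threshold and was reached through libraries before 24 h. The fall of Zfp516 is thus given as a description. At 24 h in WT Zfp652 went from 126 ± 10.8 to 31 ± 2.61 CPM and Zfp703 from 71.5 ± 0.757 to 26.98 ± 1.46 CPM (SD, n = 3). Zfp395, with no finger motif of the spacing searched for, fell by 0.95 and 1.04 at 3 and 24 h. Zfp740, the highest member per length, went from 311 ± 15.2 to 147 ± 2.81 CPM (SD, n = 3) and fell by 1.09. Of the other abundant members Zfp592 fell by 1.21, Zfp869 fell by 1.15 and Zfp513 fell by 1.10 in WT at 24 h, and Zfp692 stood at 0.08 without a call.

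**Figure D4:**
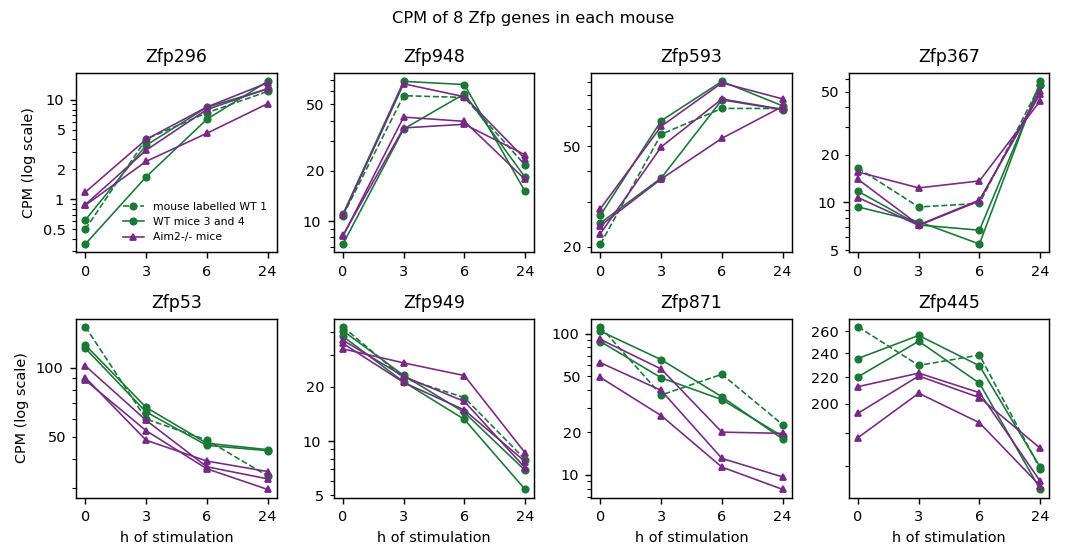
CPM on a log scale (y axis) of 8 members in each mouse at 0, 3, 6 and 24 h of stimulation (x axis, not to scale in time), with the mouse labelled WT 1 dashed. Zfp296 and Zfp593 are higher at 24 h than at 0 h in all 6 mice, Zfp948 is highest at 3 or 6 h, Zfp367 rises between 6 and 24 h, and Zfp53, Zfp949 and Zfp871 fall.

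Opposite courses occurred within 1 gene cluster. The 7 neighbouring members Zfp677, Zfp54, Zfp51, Zfp53, Zfp52, Zfp948 and Zfp983 on chromosome 17, all on the plus strand, with the KRAB motif and within 281 kb, were picked after their values were seen. At 24 h 5 of them fell and 1 rose in WT, and 5 fell and 1 rose in Aim2-/- cells. The one that rose was Zfp948. Of all genes 34.8% fell and 36.6% rose in WT, and 33.5% and 36.8% in Aim2-/- cells. In WT at 24 h Zfp677 fell by 1.83, Zfp51 fell by 1.38 and Zfp983 fell by 1.03, and Zfp54 stood at -0.28 without a call. Zfp52, which lies between Zfp53 and Zfp948, rose by 0.46 and 0.62 at 3 and 6 h and fell by 0.37 at 24 h in WT, where it stood at -0.14 (adjusted p 0.445) without the mouse labelled WT 1. Of their 50-base stretches Zfp53 shares 0.497% and Zfp948 0.115% with other transcripts.

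By role, the 8 members listed for ribosomes and RNA handling had 3 rises and 1 fall at 24 h in WT and 3 and 1 in Aim2-/- cells, so that the share that rose was near the 36.6% and 36.8% of all genes. Zfp593, whose product takes part in maturation of the large ribosomal subunit, was 20.5, 26.6 and 24.8 CPM at 0 h, 55.7, 63.1 and 37.4 at 3 h, 70.6, 90.4 and 76.3 at 6 h and 70.5, 72.3 and 69.8 CPM at 24 h in WT. All stimulated libraries lay above those of 0 h, and it rose by 1.72 at 6 h (SE 0.20, adjusted p 2.4e-07). An opposite-strand gene shares 77.9% of its exon bases and held 63 counts over all libraries, where Zfp593 held 27779. Zfp706 rose by 1.32 and 1.24 in WT and Aim2-/- cells at 24 h, and Zfp106, an RNA-binding protein, rose by 1.03 and 0.86. Zfp326, which takes part in splicing, fell by 0.53 and 0.48. At 24 h Zfp598 stood at 0.16 and 0.09, Zfp622, another factor of the large ribosomal subunit, at 0.06 and -0.02, Zfp346, which binds double-stranded RNA, at -0.17 and 0.01, and the splicing factor Zfp830 at 0.01 and -0.03, none of them called.

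Of the 3 members listed for mitosis and genome maintenance, Zfp207 rose by 0.62 and 0.48 at 24 h in WT and Aim2-/- cells and Zfp276 fell by 1.58 and 1.23, where 19.4% of the exon bases of Zfp276 are shared with opposite-strand genes. Zfp451, a SUMO ligase, fell by 0.30 in WT and stood at -0.13 in Aim2-/- cells without a call.

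Of 14 members listed as DNA-binding regulators without a KRAB domain, 11 fell and 2 rose at 24 h in WT. In Aim2-/- cells 9 fell and 1 rose. Of all genes 34.8% fell and 36.6% rose in WT, and 33.5% and 36.8% in Aim2-/- cells. Zfp143, an activator of many promoters, rose by 0.55 and 0.59 at 3 h and rose by 0.41 and 0.30 at 24 h in WT and Aim2-/- cells. Zfp609 rose by 0.48 in WT and stood at 0.34 in Aim2-/- cells at 24 h. Zfp281 stood at 0.52 in WT at 3 h and rose by 0.56 in Aim2-/- cells, and then fell by 1.16 and 0.95 at 24 h. Zfp217, a part of co-repressor complexes, fell by 1.03 and 0.82, and Zfp335, known for its role in T cell maturation, fell by 0.62 and 0.78, where 28.3% of its exon bases are shared with opposite-strand genes, Pcif1 among them, which held 67148 counts beside 45514 of Zfp335. Zfp410, known as an activator of Chd4, fell by 0.34 and 0.45, and Chd4 itself stood at 0.15 and -0.23 without a call. In both genotypes Zfp384 (-0.42 and -0.36), Zfp148 (-0.39 and -0.48), Zfp131 (-0.29 and -0.44), Zfp91 (-0.29 and -0.27) and Zfp664 (-0.53 and -0.60) fell. Zfp318 fell by 0.27 and Zfp710 fell by 0.31 in WT, with -0.11 and -0.24 in Aim2-/- cells, and Zfp407 stood at 0.02 and -0.19. Without the mouse labelled WT 1 the WT calls of Zfp609, Zfp318 and Zfp710 at 24 h were lost (adjusted p 0.0841, 0.108 and 0.064).

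Among KRAB proteins with a known target 5 of the 7 genes listed were members. Zfp445 went from 264, 221 and 236 CPM at 0 h to 158, 147 and 159 CPM at 24 h in WT, where it fell by 0.64 (SE 0.09, adjusted p 8.9e-07), and fell by 0.31 in Aim2-/- cells. Zfp809, which silences retroviruses through their primer binding site, stood at -0.19 in WT and fell by 0.43 in Aim2-/- cells. Zfp961 rose by 0.36 and 0.48. Zfp568, which silences a placental transcript of Igf2, stood at 0.20 and 0.26 without a call. Zfp932 stood at 0.03 in WT and rose by 0.60 in Aim2-/- cells.

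Of 23 genes of the silencing machinery 16 rose and 2 fell at 24 h in WT (median 0.91) and 16 rose and 3 fell in Aim2-/- cells (median 0.94), against 36.6% of all genes higher and 34.8% lower in WT and 36.8% and 33.5% in Aim2-/- cells. At 3 h 3 had risen and 2 had fallen in WT, against 16.2% and 16.4% of all genes. At 6 h 6 had risen and 3 had fallen, against 26.4% and 24.8%. The share that rose was thus near that of all genes at these times. Trim28, which KRAB domains bind, went from 358, 420.4 and 413 CPM at 0 h to 921, 1008 and 896 CPM at 24 h in WT. These groups did not overlap, and it rose by 1.25 and 0.97 in WT and Aim2-/- cells. Setdb1 rose by 0.43 and 0.47, and of the HP1 genes Cbx1 rose by 0.91, Cbx3 rose by 1.69 and Cbx5 rose by 2.89 in WT. Of the genes that copy DNA methylation after replication, Dnmt1 rose by 2.28 and Uhrf1 rose by 5.03. Of those that assemble chromatin on new DNA, Chaf1a rose by 4.25 and Chaf1b rose by 3.46. Atf7ip, the cofactor of SETDB1, fell by 1.45 and 1.33, and Fam208a, a subunit of the HUSH silencing complex, fell by 1.01 and 0.58. The other HUSH subunits Mphosph8 and Pphln1 stood at 0.44 and 1.32 in WT, both called. The value of Sumo2, which fell by 1.92 in Aim2-/- cells, rests on 1.94, 1.72 and 0.738 CPM at 0 h and 0.538, 0.202 and 0.4104 CPM at 24 h and is uncertain.

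**Figure D5:**
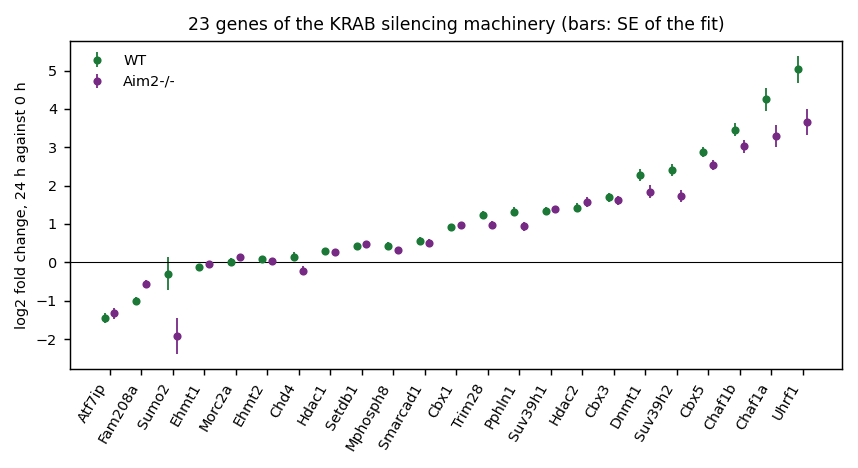
Log2 fold changes at 24 h against 0 h (y axis, bars are SE) for 23 genes that act with KRAB zinc finger proteins (x axis), in WT and Aim2-/- cells. Uhrf1, Chaf1a and Chaf1b stand highest in WT at 5.03, 4.25 and 3.46, and Atf7ip lowest at -1.45.

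Between the genotypes, 17 members were lower and 1 was higher in unstimulated Aim2-/- cells, against 1.99% of all genes lower and 3.24% higher. Of the KRAB genes 11 were lower and 0 higher. The median difference was -0.26 over KRAB genes, -0.11 over the other members and -0.01 over all genes. The count depended on single mice. It was 6 without the mouse labelled WT 1 (4 lower, 2 higher), 0 without any 1 of mice WT 3, WT 4 and Aim2-/- 1, 2 without Aim2-/- 4 and 43 without Aim2-/- 2. With all mice 72 members had an unadjusted p under 0.05, and DESeq2 called 46. Shares of all genes are not given here for these counts or for those without single mice. They therefore do not set the members apart from other genes. Without the mouse labelled WT 1 the median over KRAB genes was -0.23. B cell and myeloid markers were higher in the same Aim2-/- libraries, as given above, and their part in these differences was not tested.

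Zfp53 was at 88.3, 102 and 90.7 CPM in Aim2-/- libraries at 0 h and at 151, 122 and 126 CPM in WT libraries. The genotypes did not overlap, and the log2 difference was -0.51 (SE 0.10, adjusted p 0.013), or -0.40 (adjusted p 0.0226) without the mouse labelled WT 1. Zfp703 was the member that was higher, with 110, 90.2 and 95.5 CPM in Aim2-/- and 72.2, 70.7 and 71.6 CPM in WT libraries. Here too the libraries did not overlap, and the difference was 0.46 (SE 0.09, adjusted p 0.00864), or 0.47 (adjusted p 0.0121) without that mouse. The differences of Zfp26 (-0.38), Zfp329 (-0.62), Zfp597 (-0.41), Zfp560 (-0.52), Zfp738 (-0.56), Zfp606 (-0.52), Zfp626 (-0.42), Zfp60 (-0.46), Zfp318 (-0.38) and Zfp445 (-0.31) also passed. Without the mouse labelled WT 1 none of these 10 passed, with adjusted p from 0.0507 (Zfp26) to 0.145 (Zfp445). Of the exon bases of Zfp597, 27.1% are shared with opposite-strand genes, of which 1 held 59996 counts beside 16572 of Zfp597.

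At 3 h 0 members passed edgeR's test, against 0.294% of all genes called. An unadjusted p under 0.05 was found for 20 members, DESeq2 called 2 and limma-voom 0. Without Aim2-/- 2 the count was 12, all lower, and without the mouse labelled WT 1 it was 1. For the counts of this paragraph other than that of edgeR with all mice, shares of all genes are not given.

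At 6 h 31 members were lower and 9 higher in Aim2-/- cells, against 7.01% and 8.78% of all genes. The count was 40 with all mice, 21 without the mouse labelled WT 1, 3 without WT 3 and 1 without WT 4. It was 2 without Aim2-/- 1, 4 without Aim2-/- 4 and 57 without Aim2-/- 2. Shares of all genes without single mice are not given here. Zfp26 was called in 15 of 15 settings. It was at 54.1, 55.01 and 55.9 CPM in WT and 39.1, 44.5 and 37.5 CPM in Aim2-/- libraries, without overlap (-0.45, SE 0.09, adjusted p 0.00567). Zfp871 was at 51.6, 34.1 and 35.7 CPM in WT and 13.1, 20.1 and 11.4 CPM in Aim2-/- libraries, also without overlap (-1.45, SE 0.33, adjusted p 0.0113), and differed by -1.24 (adjusted p 0.0363) without the mouse labelled WT 1. Further differences past the threshold were those of Zfp609 (-0.78), Zfp397 (-0.68), Zfp106 (-0.62), Zfp407 (-0.55), Zfp644 (-0.53), Zfp800 (-0.48), Zfp219 (0.63) and Zfp703 (0.39). Of these 8, Zfp106 and Zfp407 no longer passed without the mouse labelled WT 1 (adjusted p 0.0565 and 0.0622). The B cell markers Cd79a and Cd79b were also called at 6 h, as was the T cell marker Cd3g (0.44, adjusted p 0.0112 by edgeR's test). Cd3e, Cd4, Cd5 and Lck were not called at 6 h. The part of these markers in the differences was not tested.

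At 24 h 1 member passed, against 0.666% of all genes called. Zfp809 was at 36.3, 40.03 and 39.2 CPM in WT and 25.2, 31.03 and 26.8 CPM in Aim2-/- libraries, without overlap. The log2 difference was -0.48 (SE 0.10, adjusted p 0.0369), or -0.52 (adjusted p 0.045) without the mouse labelled WT 1. It was called in 8 of 15 settings, with an adjusted p of up to 0.375. The number of members called was 2 without the mouse labelled WT 1, 38 without Aim2-/- 2 and 0 without any 1 of the other mice. Here too shares of all genes without single mice are not given.

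Whether the response to stimulation differed between the genotypes was tested as an interaction. At 3, 6 and 24 h 0, 0 and 0 members passed edgeR's test, against 0.0%, 0.0261% and 0.0% of all genes called, and 12, 26 and 41 members had an unadjusted p under 0.05. DESeq2 called 0, 2 and 2 members and limma-voom 0, 0 and 0. Shares of all genes are not given here for the unadjusted, DESeq2 and limma-voom counts. With each mouse as a block, which pairs its 4 libraries, edgeR called 0, 6 and 5 members, against 0.0587%, 4.68% and 2.77% of all genes. At 6 h these were Zfp28 (0.71), Zfp386 (0.75), Zfp395 (0.60), Zfp120 (0.57), Zfp526 (-0.81) and Zfp871 (-0.86), where a positive value means a higher or less negative log2 response in Aim2-/- cells. At 24 h they were Zfp260 (0.71), Zfp369 (0.64), Zfp652 (0.63), Zfp512 (0.47) and Zfp703 (-0.42). Zfp260 had the lowest adjusted p of these (SE 0.15, adjusted p 0.0151). It was at 114, 97.3 and 94.2 CPM at 0 h and 28.5, 24.1 and 25.9 CPM at 24 h in WT, and at 70.03, 84.5 and 78.7 and then 36.6, 32.8 and 28.9 CPM in Aim2-/- libraries. The block was not fitted without the mouse labelled WT 1. Without that mouse and without the block, 0 members passed edgeR's test at 6 and 24 h. Zfp260 then stood at 0.69 at 24 h (adjusted p 0.127).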

How the data were processed

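Messenger RNA was sequenced in 24 libraries of splenic CD4+ T cells, 8 groups of 3 libraries by genotype and time per the labels. Reads were mapped by the authors to GRCm38 (STAR, Ensembl annotation), and raw counts per gene were deposited, without normalization, for 54446 genes. The version of STAR and whether counting used the strand are not given in the sources used here. Gene names, positions and coding sequences were read from GENCODE on GRCm38, where 54409 genes were found, and upstream sequences from RefSeq on GRCm38.p6. A finger motif was 2 cysteines 2 residues apart, 12 residues, then 2 histidines 3 to 5 residues apart.

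Counts were tested with edgeR 4.0.16 in R 4.3.3, with all 24 libraries, 1 mean per group, TMM factors, filterByExpr (minimum count 10) and the quasi-likelihood F test, two-sided. Benjamini-Hochberg adjustment ran over the 15325 genes tested, and a gene was called at an adjusted p under 0.05. CPM and log2 fold changes use TMM-scaled totals, except that members were chosen on plain totals. Library totals were 19715161 to 21627018 counts. The biological coefficient of variation was 18.6%. The steps were tested on simulated data.

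Alternatives were RLE factors, library totals, DESeq2 1.42.0, limma-voom (limma 3.58.1), other filters, only the libraries compared, a mouse block, and each mouse left out. Libraries that share a genotype and a number in the labels were taken to be paired, as those of 1 mouse. Deviations from the group means of log2 CPM correlated with r of 0.143 to 0.683 in the 36 pairs of 1 mouse and -0.502 to 0.0998 in the 72 pairs of different mice of a genotype. The methods of the study name no block, so the main fit has none. It thus treats the libraries of 1 mouse as independent, and its adjusted p values between genotypes can be too small.

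The members and all gene lists were chosen with earlier results of these data known. Named members are those on the role lists, the 5 largest called rises and falls without overlap per stimulation comparison, up to 10 called members per genotype comparison, the 10 highest per length and those next to the threshold. The chromosome 17 cluster and the members called under the mouse block were picked after their values were seen.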

Additional observations from a re-analysis of the deposited data

How the results depend on the processing

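The direction held for all 3094 values of named genes under 15 alternative settings, 316 of them no longer past the threshold, and 148 of 221 pairs of gene and comparison were called in every setting. The numbers of members called at 6 and 24 h of stimulation and between 6 and 24 h stayed within 1.5 times under every setting. At 3 h 84 members were called in WT, with 42 to 92 when 1 mouse was left out, and 75 in Aim2-/- cells, with 34 to 70, and 41 when only the libraries compared entered the fit. Between genotypes the counts were unstable. At 0 h, 18 members became 46 with DESeq2 and 2 with only the libraries compared, and 0 to 43 when 1 mouse was left out. At 3 h, 0 became 2 with DESeq2 and 0 to 12 without 1 mouse. At 6 h, 40 became 18 with only the libraries compared and 1 to 57 without 1 mouse. At 24 h, 1 became 0 with library totals, limma-voom or only the libraries compared, 2 with no filter on low counts, 7 with DESeq2, and 0 to 38 without 1 mouse. For the interaction, DESeq2 called 2 members at 6 h and 2 at 24 h, no filter on low counts gave 1 at 24 h, and mouse as a block gave 6 at 6 h and 5 at 24 h. The mouse block moved no count of stimulation calls by over 1.5 times. Mouse number as a block across genotypes gave 66, 27, 71 and 49 members at 0, 3, 6 and 24 h, but the genotypes share only a number there (32 pairs with r from -0.245 to 0.369). The cause of these shifts was not tested. Apart from the mouse block of the interaction, shares of all genes under these settings are not given here.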
